A study of Homo sapiens with 3 samples.

Results

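The genes described here are the 10 enzymes of serine synthesis and of folate-bound one-carbon transfer in T47D, a human breast cancer line that carries the estrogen receptor. They were taken by name from the deposited table of 58039 genes, which held all 10, and all 10 reached a mean of at least 1 FPKM over the 3 libraries, the level set here for a test. FPKM scales fragments to transcript length and to all mapped fragments, so levels can be compared between genes of different length. The 3 libraries were cells with shRNA1 against ERINA, cells with shRNA2 against ERINA, and control cells. All were total RNA of T47D cells infected with lentivirus and selected with puromycin as stable cells, and the labels do not say whether these were pools or single clones. The description label calls the control a control hairpin and the shRNA label reads None for it. ERINA is a long noncoding RNA, and the comparison asks which transcripts differ when it is reduced. The genotype label puts both hairpins in a single knockdown group, each hairpin was sequenced once and the control was sequenced once, so any spread given between knockdown libraries holds hairpin and technical differences together.

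Serine is made from a glycolytic intermediate by PHGDH, PSAT1 and PSPH, acting in that order. The serine hydroxymethyltransferases SHMT1 in the cytosol and SHMT2 in mitochondria then split serine into glycine and a single-carbon unit carried on tetrahydrofolate. In mitochondria MTHFD2 or its paralog MTHFD2L oxidises that unit, MTHFD1L releases it as formate, and ALDH1L2 can instead burn it to CO2 with formation of NADPH. In the cytosol the trifunctional enzyme MTHFD1 takes formate back for purine, thymidylate and methionine synthesis. MTHFD2 is known for high levels in embryonic, proliferating and many tumour cells.

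The 10 genes were chosen by pathway with their FPKM and bounds in these same 3 libraries known, so their levels and changes are given as a description with no test. In outline, MTHFD2 was 61.3% below control with shRNA1 and 50.2% below it with shRNA2. MTHFD2L was higher with both hairpins, and ALDH1L2 was lower at a very low level. The other 7 genes lay within -0.23 and 0.15 of control on the log2(FPKM + 0.5) scale, with the FPKM as deposited. In RNA of whole cultures, a lower level in every cell and fewer cells with the transcript cannot be told apart. Of the 10 genes, 8 were lower than control in both hairpin libraries and 2 were higher in both. Among all 13112 tested genes, 42.6% were lower with both hairpins and 42.4% were higher with both.

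The sequences of MTHFD2 and MTHFD2L are shown because these paralogs had the largest differences from control and lay on opposite sides of it. Each window runs from 250 bases before to 50 bases after a RefSeq start site, on GRCh38.p14, read 5′ to 3′ on the plus strand. The MTHFD2 window is chr2:74198365-74198664, and RefSeq gives MTHFD2L a pair of starts, with windows chr4:74123023-74123322 and chr4:74157868-74158167. Capitals mark the matches to the motifs searched, of which the upstream MTHFD2L window held none.
MTHFD2: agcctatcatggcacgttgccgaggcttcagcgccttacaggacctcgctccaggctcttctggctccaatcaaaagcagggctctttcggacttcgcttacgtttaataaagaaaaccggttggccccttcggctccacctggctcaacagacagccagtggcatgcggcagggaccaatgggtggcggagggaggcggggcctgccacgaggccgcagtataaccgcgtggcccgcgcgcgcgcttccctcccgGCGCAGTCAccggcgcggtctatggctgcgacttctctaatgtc
MTHFD2L, upstream start: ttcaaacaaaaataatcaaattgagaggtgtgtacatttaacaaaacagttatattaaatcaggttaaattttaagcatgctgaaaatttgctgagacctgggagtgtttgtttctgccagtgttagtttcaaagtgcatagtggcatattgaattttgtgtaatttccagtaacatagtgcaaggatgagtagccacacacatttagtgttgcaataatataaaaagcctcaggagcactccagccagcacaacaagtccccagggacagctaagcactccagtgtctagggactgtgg
MTHFD2L, downstream start: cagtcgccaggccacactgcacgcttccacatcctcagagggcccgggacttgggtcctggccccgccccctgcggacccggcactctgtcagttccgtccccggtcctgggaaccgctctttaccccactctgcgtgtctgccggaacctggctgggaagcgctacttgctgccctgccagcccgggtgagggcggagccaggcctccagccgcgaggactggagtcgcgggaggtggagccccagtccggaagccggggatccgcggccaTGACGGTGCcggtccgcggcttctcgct

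The capitals in the MTHFD2 window, which begin at base 7 after the start, match TGACNNNGC, the core of the antioxidant response element, on the minus strand. Those in the downstream MTHFD2L window begin at base 23 and match it on the plus strand. The same core was present in 13.3% of 34943 RefSeq windows of this length. GC content was 62.7% in the MTHFD2 window, against 38.7% and 71.0% in the upstream and downstream MTHFD2L windows. The other motifs were searched, like this core, on both strands in the 11 windows that the RefSeq table used here gave for 7 of the 10 genes. SHMT2, PSPH and ALDH1L2 were not matched. TGATGNAA, the core of the element bound by C/EBP and ATF factors such as ATF4, occurred in 3 of the 11, all overlapping windows of MTHFD1L that share a single copy, and in 3.62% of all windows. CACGTG, the E-box, occurred in those 3 windows, again as a single shared copy, and in that of MTHFD1, against 7.23% of all windows. The E2F-type words TTTGGCGC, TTTCCCGC and TTTGGCGG occurred in 0 of the 11 windows and in 2.88% of all. The first and the last of these words differ only in their final letter, and no match of a motif overlapped a match of another in these windows. A match is a description of these letters only.

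The coding sequences bear on whether reads of paralogs can be told apart. The longest annotated coding sequences of MTHFD2 and MTHFD2L had 1053 and 1044 bases and were 69.5% identical over 999 aligned bases. Their longest exact shared run was 20 bases, starting at base 583 in MTHFD2 and at base 625 in MTHFD2L, shown with all of it in capitals because all of it is shared.
MTHFD2 and MTHFD2L: AATGTGGTTGTGGCTGGAAG
The same measure was 67.1% identity and a run of 18 bases for SHMT2 and SHMT1, and 64.2% and 14 bases for MTHFD1 and MTHFD1L. No stretch of 31 bases was common to the annotated transcripts of any of the 3 pairs (0 in each).

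MTHFD2 (ENSG00000065911; GRCh38 chromosome 2, 74198562 to 74217565, plus strand) stood at 64.5 FPKM with shRNA1 and 83.0 FPKM with shRNA2, against 166.7 FPKM in control. The authors' deposited confidence intervals were 32.3 to 96.8 FPKM with shRNA1 and 44.4 to 121.6 FPKM with shRNA2, against 98.3 to 235 FPKM in control. Both hairpin libraries were thus low and control was high. The shRNA1 interval lay wholly below the control interval, and the shRNA2 interval overlapped it. The level was 2.58-fold lower with shRNA1 and 2.01-fold lower with shRNA2, and the hairpin libraries averaged 73.8 ± 13.1 FPKM (SD, n = 2). On the log2(FPKM + 0.5) scale the differences from control were -1.36 and -1.001, with a mean of -1.18. That mean ranked 116 from the bottom among 11546 tested protein-coding genes. Both comparisons use the same control library, so they are not independent of each other.

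MTHFD2L (ENSG00000163738; chromosome 4, 74114174 to 74303099, plus strand) was at 4.80 FPKM with shRNA1 and 3.29 FPKM with shRNA2, against 2.12 FPKM in control. The deposited intervals were 1.81 to 7.79 FPKM with shRNA1 and 0.936 to 5.64 FPKM with shRNA2, against 0.555 to 3.69 FPKM in control, and all 3 overlapped. Its level relative to control was 2.26-fold with shRNA1 and 1.55-fold with shRNA2, with log2 differences of 1.01 and 0.53 (mean 0.77). It ranked 240 from the top among tested protein-coding genes. The half-width of the control interval was 73.9% of the value for MTHFD2L and 41.0% for MTHFD2.

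The ratio of MTHFD2 to MTHFD2L FPKM was 13.4 with shRNA1 and 25.2 with shRNA2, against 78.5 in control. MTHFD2 was therefore the higher of the pair in every library, and the ratio was smaller in both hairpin libraries. The size of this ratio is uncertain, since the MTHFD2L intervals were wide (0.555 to 3.69 FPKM in control) and overlapped between libraries. The ratio of SHMT2 to SHMT1 differed little, at 3.48 and 3.31 with shRNA1 and shRNA2, against 3.25 in control. That of MTHFD1 to MTHFD1L was 5.87 and 6.48, against 7.48 in control.

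**Figure D1:**
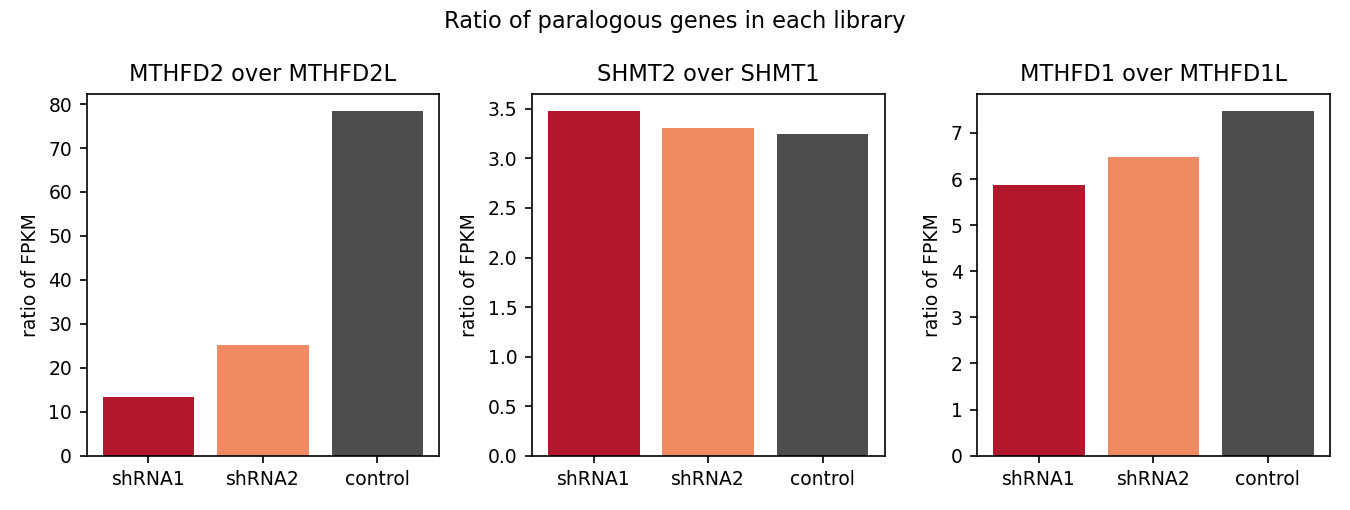
Ratio of FPKM between paralogous genes (vertical axis, no unit, starting at 0) in the shRNA1, shRNA2 and control libraries, 1 bar per library. There are no error bars, since each condition has 1 library and no interval was computed for a ratio. The control ratio of MTHFD2 to MTHFD2L divides by 2.12 FPKM, with an interval of 0.555 to 3.69 FPKM. MTHFD2 over MTHFD2L is 13.4 and 25.2 with the hairpins, against 78.5 in control, whereas SHMT2 over SHMT1 stays between 3.25 and 3.48.

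ALDH1L2 (ENSG00000136010; chromosome 12, 105019784 to 105084577, minus strand) was at 1.48 FPKM with shRNA1 and 1.82 FPKM with shRNA2, against 2.63 FPKM in control. The intervals of both hairpin libraries began at 0 and reached 3.74 and 3.75 FPKM, against 0.442 to 4.82 FPKM in control, so the 3 libraries overlapped. The log2 differences were -0.66 and -0.43. C12orf45, on the opposite strand, overlaps ALDH1L2 and was listed at 24.2 and 25.4 FPKM with shRNA1 and shRNA2, against 22.9 FPKM in control, and the sources used here do not say whether reads were counted by strand.

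MTHFD1L (ENSG00000120254; chromosome 6, 150865549 to 151101887, plus strand), the formate-releasing enzyme, was at 8.33 and 8.13 FPKM with shRNA1 and shRNA2, against 7.48 FPKM in control. It was slightly higher with both hairpins, with log2 differences of 0.15 and 0.11, which came to 0.03 and 0.08 when every library was set to an equal FPKM total. SHMT2 (ENSG00000182199; chromosome 12, 57229327 to 57234935, plus strand), which supplies the single-carbon units of mitochondria, was at 145 and 139.7 FPKM with shRNA1 and shRNA2, against 157 FPKM in control. Its log2 differences were -0.12 and -0.17 (-0.24 and -0.20 at equal totals), close to control, whereas MTHFD2, which acts on its product, was far lower. Together the 5 mitochondrial genes summed to 224 FPKM with shRNA1 and 236 FPKM with shRNA2, against 336 FPKM in control.

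The cytosolic enzymes were slightly below control. SHMT1 (ENSG00000176974; chromosome 17, 18327860 to 18363563, minus strand) was at 41.7 and 42.2 FPKM with shRNA1 and shRNA2, against 48.5 FPKM in control. MTHFD1 (ENSG00000100714; chromosome 14, 64388031 to 64463457, plus strand) was at 48.9 and 52.7 FPKM, against 55.9 FPKM in control. All intervals of these 2 genes overlapped between libraries, and the log2 differences lay between -0.22 and -0.09. At equal totals those of SHMT1 were -0.34 and -0.23, and those of MTHFD1 were -0.31 and -0.12. SMCR8 overlaps SHMT1 and ZBTB25 overlaps MTHFD1, each on the opposite strand.

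The 3 enzymes of serine synthesis were also slightly below control. PHGDH, the entry enzyme (ENSG00000092621; chromosome 1, 119648411 to 119744226, plus strand), was at 31.2 and 31.8 FPKM with shRNA1 and shRNA2, against 36.6 FPKM in control. PSAT1, the aminotransferase (ENSG00000135069; chromosome 9, 78297143 to 78330093, plus strand), was at 8.70 and 9.30 FPKM, against 10.3 FPKM in control. PSPH, the phosphatase of the last step (ENSG00000146733; chromosome 7, 56011051 to 56051604, minus strand), was at 25.1 and 25.8 FPKM, against 28.8 FPKM in control. In each of the 3 both hairpin libraries were below control by 9.42% to 15.3%, well inside the deposited intervals. The half-width of these in control was 36.5% for PHGDH, 42.9% for PSAT1 and 44.7% for PSPH. At equal totals the log2 differences with shRNA1 and shRNA2 were -0.35 and -0.23 for PHGDH. They were -0.34 and -0.17 for PSAT1, and -0.32 and -0.19 for PSPH.

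**Figure D2:**
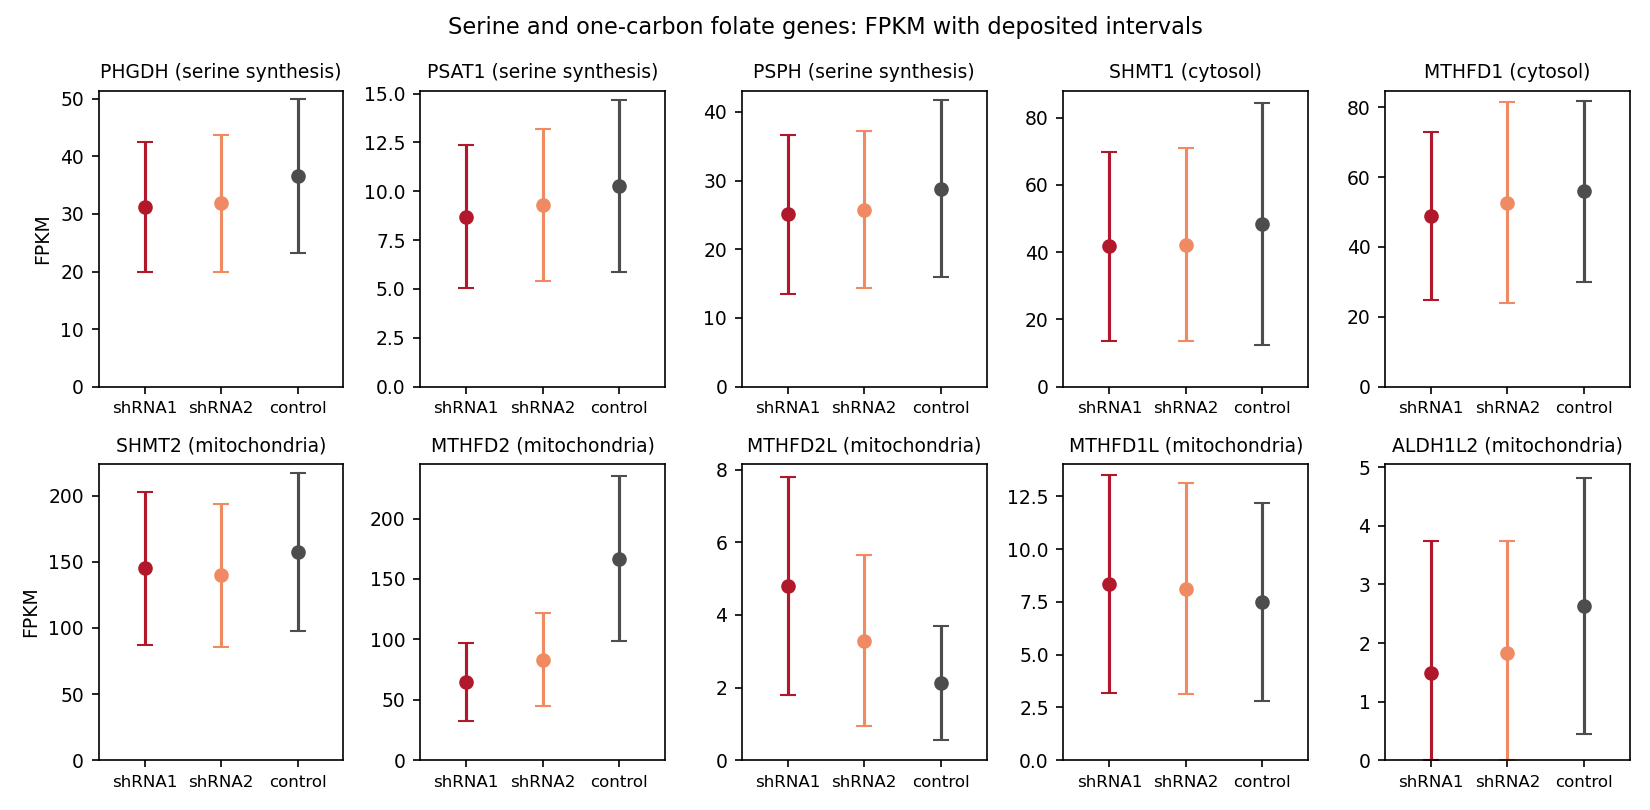
FPKM (vertical axis, starting at 0, its own scale for each gene) of the 10 genes in the shRNA1, shRNA2 and control libraries. Points are the deposited values and bars the deposited confidence intervals. MTHFD2 at 64.5 and 83.0 FPKM with the hairpins, against 166.7 FPKM in control, is the only gene in which the interval of a hairpin library (shRNA1) is clear of the control interval.

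The order of the levels differed at its ends. In both hairpin libraries SHMT2 was highest and MTHFD2 came next, and their intervals overlapped, whereas in control MTHFD2 was highest, with an interval that overlapped that of SHMT2. SHMT2 was clear of MTHFD1, the third in level, in control, whereas MTHFD2 overlapped MTHFD1 in both hairpin libraries. In every library MTHFD1, SHMT1, PHGDH and PSPH followed in that order, with intervals that overlapped from each gene to the next. PSPH was clear of PSAT1 in every library. PSAT1 and MTHFD1L came next, overlapping each other. MTHFD2L was above ALDH1L2 with both hairpins and below it in control, again with overlapping intervals. MTHFD2 and SHMT2 made up 55.2% and 56.0% of the summed FPKM of the 10 genes with shRNA1 and shRNA2, against 62.8% in control. The sum was 380 and 398 FPKM with the hairpins, against 516 FPKM in control. Leaving MTHFD2 out, it was 315 and 315 FPKM with the hairpins, against 350 FPKM in control, so most of the difference in the sum came from that gene.

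Set beside all tested genes, the list as a whole sat slightly low and MTHFD2 and MTHFD2L stood at its edges. The median log2 difference of the 10 genes was -0.21 with shRNA1 and -0.16 with shRNA2, against -0.0006 and 0 over all 13112 tested genes. The central 90% of tested genes had a mean log2 difference between -0.75 and 0.67, and MTHFD2 and MTHFD2L were outside that range. At least 1.5-fold lower with both hairpins were 1 of the 10, MTHFD2, and 7.21% of all tested genes. At least 1.5-fold higher with both were 1 of the 10, MTHFD2L, and 5.66% of all. None of the 10 (0) had intervals of both hairpin libraries clear of control, which held below control for 0.221% and above it for 0.0839% of tested genes. The shRNA1 interval alone was below control for 0.671% of tested genes. In limma for knockdown against control, 0 of the 10 reached an adjusted p (Benjamini-Hochberg over all tested genes) below 0.05, and 2 did so without adjustment. Of all tested genes 0.351% passed, 0.0839% as higher and 0.267% as lower, and 29.7% did so without adjustment. The fit has a single residual degree of freedom, and nothing is read from these counts, since the same contrast was known when the genes were chosen.

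**Figure D3:**
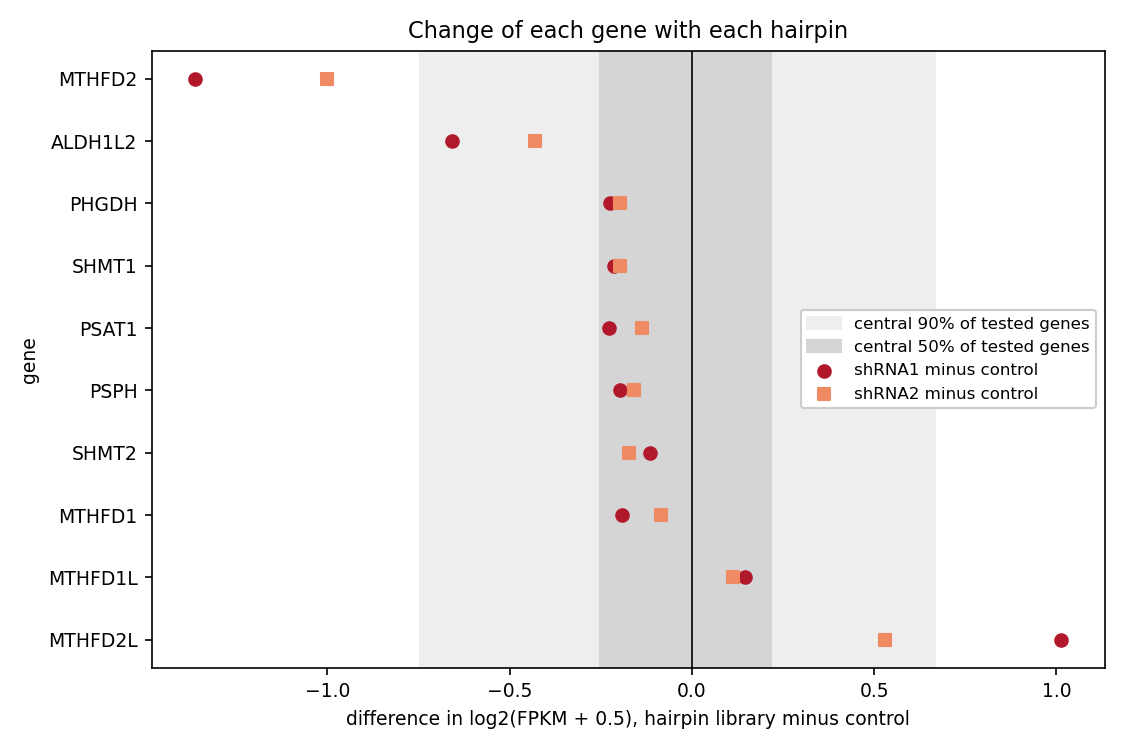
Difference in log2(FPKM + 0.5) from control (horizontal axis) for each gene with shRNA1 (circles) and shRNA2 (squares), over grey bands that hold the central 90% and 50% of the mean differences of 13112 tested genes. MTHFD2 at -1.36 and -1.001 lies below the wider band, and the mean of MTHFD2L, 0.77, lies above it.

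ERINA, listed as LINC00992 (a synonym in RefSeq), was at 5.21 and 8.91 FPKM with shRNA1 and shRNA2, against 63.4 FPKM in control. MTHFD2 and ERINA were thus both lowest with shRNA1, and MTHFD2L was highest there. In each of these genes the hairpin intervals overlapped, for ERINA 2.09 to 8.34 FPKM with shRNA1 and 4.04 to 13.8 FPKM with shRNA2. Log2 differences of all tested genes also spread more widely with shRNA1. Their lower and upper quartiles were -0.29 and 0.25 with shRNA1, against -0.22 and 0.20 with shRNA2. A graded response to the ERINA level was not tested. The total FPKM was 860240 and 808451 with the hairpins and 790290 in control. Proliferation genes were, like MTHFD2, below control in both hairpin libraries. This held for all 18 listed, against 42.6% of all tested genes, with a median log2 difference of -0.81. In limma 0 of the 18 passed over all tested genes (adjusted p of 0.0829 to 0.15), where 0.351% of genes passed. With protein-coding genes alone 17 of the 18 passed, where 2120 of 11546 genes passed. All 18 had an unadjusted p below 0.05, against 29.7% of all tested genes. Nothing is read from these counts, since the list was chosen with earlier results of these data known. The fit also has a single residual degree of freedom. As a sum, the FPKM of the 18 genes was 812 and 943 with the hairpins, against 1454 in control. MKI67, the gene of the Ki-67 antigen, was at 2.71 and 3.24 FPKM with the hairpins, against 5.57 FPKM in control. The part of proliferation in the MTHFD2 difference was not tested. Of 10 luminal markers, all listed above 1 FPKM in every library, 3 were higher and 4 lower with both hairpins (median log2 difference -0.05). In limma 0 of these markers passed over all tested genes. With protein-coding genes alone 3 passed as higher and 1 as lower, where 2120 of 11546 genes passed. At an unadjusted p below 0.05 there were 3 higher and 2 lower, against 29.7% of all tested genes. The keratin KRT8 was at 2474 and 2221 FPKM with the hairpins, against 2800 FPKM in control, KRT18 at 2001 and 1770 FPKM, against 1996 FPKM in control, and KRT19 at 5210 and 4281 FPKM, against 3152 FPKM in control. The cadherin CDH1 was at 151 and 189 FPKM, against 234 FPKM in control, the trefoil factor TFF1 at 3.13 and 3.72 FPKM, against 6.39 FPKM in control, and the pioneer factor FOXA1 at 94.8 and 91.5 FPKM, against 65.7 FPKM in control. Of 14 markers of stromal, immune, endothelial and myoepithelial cells, 11 stayed under 1 FPKM in every library, and CD3E and COL3A1 were listed at 0 throughout. The 14 markers summed to 12.4 and 14.3 FPKM with the hairpins, against 16.0 FPKM in control. ACTA2, an actin of smooth muscle and myoepithelial cells, made up most of each sum, at 9.21 and 10.8 FPKM with the hairpins, against 9.99 FPKM in control. DCN was at 1.25 and 0.663 FPKM, against 0.0227 FPKM in control, and COL1A1 at 1.65 and 2.10 FPKM, against 5.16 FPKM in control.

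The other genes of the pathway come from lists of 126 listed companion genes, of which 113 were tested and none is among the 10. In limma, 0 of the 113 passed at a Benjamini-Hochberg adjusted p under 0.05 over all tested genes, with adjusted p from 0.0721 to 0.986, and 10 higher and 20 lower had an unadjusted p under 0.05. These 30 of 113 are no larger a share than the 29.7% of all tested genes. That share pools higher and lower genes. The median log2 difference of the 113 was -0.07. No companion gene had both hairpin intervals clear of control (0 below and 0 above). The named companions below did not pass in this fit, though some did when protein-coding genes alone were tested. Their values are given as levels.

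Genes of folate uptake and recycling lay on both sides of control. Of 16 tested, 7 were lower and 7 higher with both hairpins, with a median log2 difference of 0.02. TYMS, thymidylate synthase, which consumes a folate-bound carbon, was at 8.51 and 8.13 FPKM with shRNA1 and shRNA2, against 12.9 FPKM in control. FOLR1, a folate receptor, was at 14.7 and 15.7 FPKM, against 24.2 FPKM in control, and GGH, which trims folate polyglutamates, at 42.5 and 48.9 FPKM, against 65.1 FPKM in control. Chosen after its values were seen, QDPR, a pteridine reductase, was higher, at 5.11 and 5.53 FPKM, against 4.03 FPKM in control. The folate carrier SLC19A1 was at 5.403 and 4.92 FPKM, against 7.43 FPKM in control. SLC25A32, the mitochondrial folate carrier, was at 17.1 and 18.9 FPKM, against 16.5 FPKM in control.

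Serine and glycine handling had 11 of 22 tested genes lower and 8 higher with both hairpins (median -0.20). SLC1A4, a transporter of serine and alanine, was at 5.95 and 6.44 FPKM with shRNA1 and shRNA2, against 9.81 FPKM in control. The glycine transporter SLC6A9 was at 1.15 and 1.25 FPKM, against 2.11 FPKM in control, and SFXN1, the mitochondrial serine carrier, at 30.0 and 32.5 FPKM, against 36.8 FPKM in control. GLDC, of the glycine cleavage system, was at 2.37 and 2.87 FPKM, against 3.67 FPKM in control, and DLD, a dehydrogenase that this system shares with other complexes, at 25.4 and 29.6 FPKM, against 37.4 FPKM in control. PTDSS1, which uses serine for phosphatidylserine, was at 135 and 130 FPKM, against 89.2 FPKM in control. SRR, serine racemase, was at 2.82 and 5.36 FPKM, against 6.63 FPKM in control, with overlapping intervals that began at 0 in every library.

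Purine synthesis, the main user of formyl-tetrahydrofolate, was split. Of 13 tested genes 6 were lower and 6 higher with both hairpins (median -0.07). ATIC, which adds the last formyl group, was at 56.3 and 56.5 FPKM with shRNA1 and shRNA2, against 36.9 FPKM in control, for which limma gave 0.0829 as the adjusted p (Benjamini-Hochberg; 0.00933 to 0.227 over the alternatives). PFAS, a middle enzyme of the route, was at 10.6 and 8.75 FPKM, against 5.23 FPKM in control. GART, the other formyl-using enzyme, was at 63.4 and 66.0 FPKM, against 68.4 FPKM in control, and PAICS at 74.0 and 67.3 FPKM, against 64.4 FPKM in control. PPAT, the entry enzyme, was at 11.9 and 12.4 FPKM, against 16.7 FPKM in control. IMPDH1, of guanine nucleotide synthesis, was at 10.8 and 15.2 FPKM, against 26.6 FPKM in control, and ADSS, of adenine nucleotide synthesis, at 10.8 and 12.7 FPKM, against 18.4 FPKM in control.

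In the methionine cycle and S-adenosylmethionine genes 8 of 16 tested were higher and 7 lower with both hairpins (median 0.06). MAT2A, which makes S-adenosylmethionine, was at 29.7 and 30.9 FPKM with shRNA1 and shRNA2, against 22.4 FPKM in control. ADI1, of methionine salvage, was at 13.3 and 15.4 FPKM, against 23.1 FPKM in control. GNMT, a glycine methyltransferase, was at 6.53 and 5.05 FPKM, against 4.23 FPKM in control, with intervals that began at 0 in every library. SRM, spermidine synthase, was at 37.5 and 29.9 FPKM, against 25.7 FPKM in control. SARDH, sarcosine dehydrogenase, was at 1.27 and 1.43 FPKM, against 2.003 FPKM in control.

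ATF4 is the transcription factor of the amino acid response and is known to induce PHGDH, PSAT1, PSPH, SHMT2, MTHFD2 and ALDH1L2. Its own transcript was at 128 and 124 FPKM with shRNA1 and shRNA2, against 126 FPKM in control. Of 35 tested genes in the list of ATF4 targets, which includes ATF4, 22 were lower and 4 higher with both hairpins, against 42.6% and 42.4% of all tested genes, with a median log2 difference of -0.11. At an unadjusted p below 0.05, 8 were lower and 1 was higher. These 9 of 35 are no larger a share than the 29.7% of all tested genes. STC2, a secreted glycoprotein, was at 45.7 and 47.8 FPKM, against 93.1 FPKM in control, for which limma gave 0.0721 as the adjusted p (Benjamini-Hochberg; 0.00325 to 0.227 over the alternatives). SLC7A1, a carrier of cationic amino acids, was at 2.87 and 2.9995 FPKM, against 5.12 FPKM in control, and ALDH18A1, of proline synthesis, at 30.4 and 41.6 FPKM, against 50.7 FPKM in control. ASNS, asparagine synthetase and a standard readout of ATF4, was at 19.6 and 22.3 FPKM, against 19.6 FPKM in control, and CHAC1, another such readout, at 1.65 and 1.77 FPKM, against 1.53 FPKM in control. DDIT4, an inhibitor of mTOR signalling, was at 110 and 105 FPKM, against 73.7 FPKM in control. The transcription factor ATF5 was at 4.24 and 2.61 FPKM, against 2.12 FPKM in control, with intervals that began at 0 in every library. Named after their values were seen, TRIB3, a pseudokinase, was at 28.2 and 31.1 FPKM, against 42.1 FPKM in control, PCK2, a mitochondrial carboxykinase, at 17.6 and 18.6 FPKM, against 24.4 FPKM in control, and YARS, a tRNA synthetase, at 28.7 and 33.0 FPKM, against 43.6 FPKM in control. The transcription factors DDIT3 and CEBPB were at 35.8 and 38.0 FPKM, against 45.7 FPKM in control, and at 8.13 and 9.07 FPKM, against 11.5 FPKM in control. Genes of the list thus stood above, close to and below control, with more below than above. The 29.7% of all tested genes pools higher and lower genes, and no share by direction was set beside it. Of 13 tested regulators of serine synthesis genes 4 were lower and 4 higher with both hairpins (median 0.01). Among them the growth-promoting transcription factor MYC was at 17.9 and 17.4 FPKM, against 18.5 FPKM in control. EIF2AK4, the kinase that senses amino acid lack, was at 14.3 and 14.9 FPKM, against 17.6 FPKM in control, and the kinase MTOR at 15.7 and 15.1 FPKM, against 13.3 FPKM in control. The transcription factor TP73 was at 1.99 and 1.94 FPKM, against 2.38 FPKM in control, and the histone methyltransferase EHMT2 at 18.7 and 16.1 FPKM, against 15.1 FPKM in control.

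**Figure D4:**
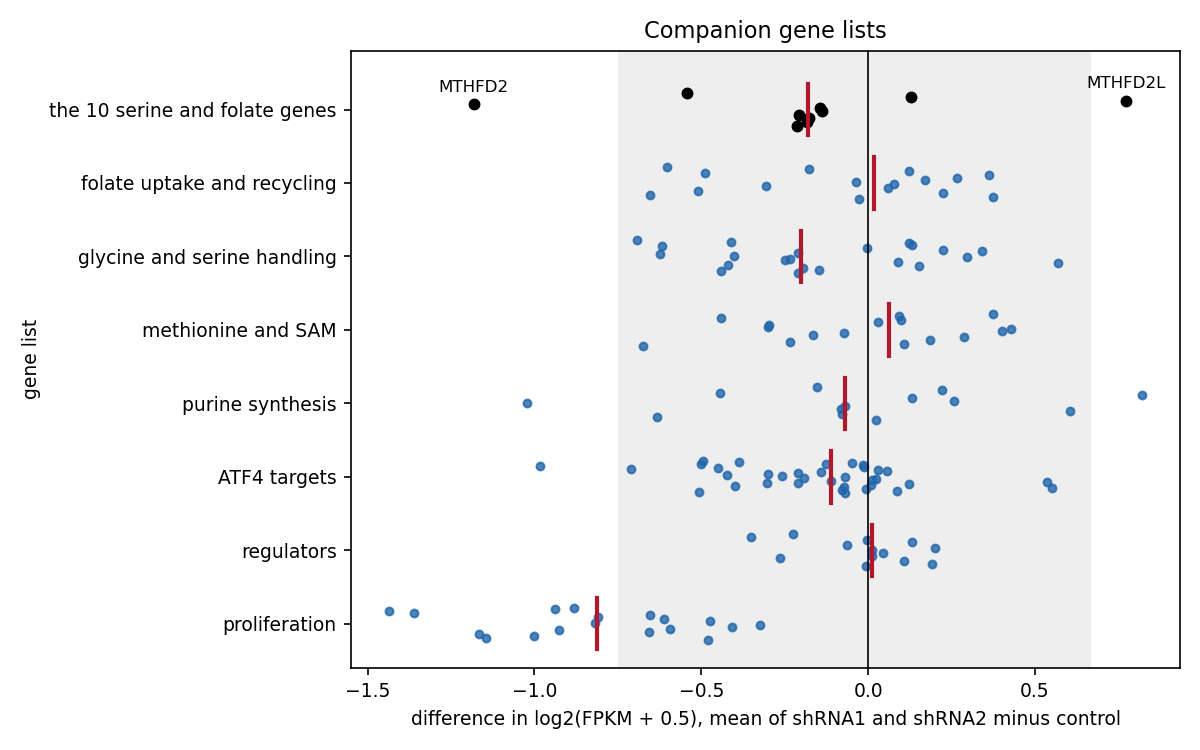
Mean difference of the hairpin libraries from control in log2(FPKM + 0.5) (horizontal axis) for the 10 genes (black) and for each tested gene of 7 companion and proliferation lists (blue), with the median of each list as a red bar and the central 90% of all tested genes as a grey band. The list medians run from -0.20 to 0.06 apart from proliferation at -0.81, and MTHFD2 lies at the level of the lower proliferation genes.

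Over the 3 libraries, likeness was measured as the distance between the pairs of log2 differences with shRNA1 and shRNA2. The tested protein-coding genes nearest to MTHFD2 were HMGCS1 (distance 0.001), JPH2 (0.02) and AP3S2 (0.02), and 29 genes lay within 0.1. HMGCS1, an enzyme of cholesterol synthesis, was at 14.9 and 19.3 FPKM with shRNA1 and shRNA2, against 39.1 FPKM in control. Nearest to MTHFD2L were CHURC1-FNTB (0.03), ZG16B (0.04) and PSD4 (0.04), with 6 genes within 0.1. With 3 libraries such nearness is a description only.

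Pseudogenes of these genes, taken by name, held almost no signal. The 14 listed genes named as pseudogenes of the 10 reached at most 0.274 FPKM in any library.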

How the data were processed

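RNA sequencing of 3 T47D libraries was deposited as a table of FPKM with a lower and an upper confidence bound and a status for each gene, per the file headers. The submitters' processing notes list STAR, RSEM and GRCh38 without role or version. The annotation, strand setting and scaling between libraries were not stated there. The status was OK for all 10 genes in all libraries. Values whose bounds mark a single fragment in genes with 1 transcript gave depths of about 29300000, 29800000 and 28500000 fragments for shRNA1, shRNA2 and control. These depths were computed from the deposited FPKM, so any such scaling is included in them.

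Changes were computed on log2(FPKM + 0.5), which understates the change of low genes. Genes with a mean of at least 1 FPKM (13112) were tested with limma 3.58.1 in R 4.3.3 (eBayes with a trend; Benjamini-Hochberg; threshold 0.05), with the 2 hairpin libraries against 1 control. Its spread rests on the 2 hairpin libraries alone, and control is assumed to vary like them. The fit was run on simulated data with equal noise in every library. Whether control varies like the hairpin libraries was not covered by that run. Gene types and coordinates came from GENCODE release 29 on GRCh38, and promoters from RefSeq on GRCh38.p14. Tables and plots used Python 3.11.15. Members and lists were chosen with earlier results of these data known. From each list the text names genes past the threshold, the 5 that moved most in the same direction with both hairpins, and fixed key genes; a few genes that this rule names are not reported here. MYC, QDPR, TRIB3, PCK2, YARS, DDIT3, CEBPB and the luminal and other cell markers were named after their values were seen. Protein sequences were not used here. Alternatives changed the pseudocount, the filter, the scaling, the genes tested, the trend and the hairpin libraries used.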

Additional observations from a re-analysis of the deposited data

How the results depend on the processing

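The median log2 difference of the 10 genes was -0.18. It ran from -0.21 to -0.16 when a hairpin library was left out, each a value with no test, and was -0.25 with libraries scaled to the same total FPKM, which shifted the median of all tested genes by -0.12 with shRNA1 and -0.03 with shRNA2. The count of genes lower with both hairpins was 8 in each of these settings (8 to 8 when a hairpin library was left out). Of 30 values for single genes under other pseudocounts or the same total, 23 moved by less than the SD between hairpins and 7 by more, all 7 with the same total. None of them changed sign. MTHFD2 ran from -1.36 to -1.001 and MTHFD2L from 0.53 to 1.01 over all alternatives. Set against the control FPKM itself in place of its interval, both hairpin intervals of 1 gene, MTHFD2, were clear, in place of 0 genes. Limma called 46 of all tested genes (11 higher and 35 lower). It called 175 with the same total (65 and 110), 2120 with protein-coding genes alone (821 and 1299), and 0 without a filter, where 5039 had an unadjusted p under 0.05. Of the companion genes it called 1, STC2, with the same total and 19 with protein-coding genes alone (5 higher and 14 lower), in place of 0. The cause of these shifts was not tested. No paired analysis was possible because there is 1 control library, so the groups share fewer than 2 replicate numbers.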
